A study of Mus musculus with 14 samples.

Results

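Livers of mice on a diet that causes metabolic dysfunction-associated steatohepatitis (MASH) were compared after treatment with C18:1-leucine or with C18:1. C18:1 is a fatty acid, oleic acid, and C18:1-leucine is the same acid joined to the amino acid leucine. All mice were C57BL6/J males, 8 weeks old at the start. They ate chow or the MASH diet for 16 weeks, and the treated groups then received vehicle, C18:1 or C18:1-leucine for 6 more weeks while the MASH diet went on. The comparison was taken from the sample titles and holds 7 of the 14 liver RNA-seq libraries, with 3 of C18:1-leucine (replicates 1, 2 and 4) and 4 of C18:1 (replicates 1 to 4). The other 7 are 4 chow libraries and 3 libraries of MASH livers (replicates 2, 3 and 4), whose titles name no treatment. Both compared groups ate the MASH diet, so every difference below is between 2 treatments of diseased liver. The sources used here give no dose. The labels do not say that each library is a separate mouse, and p-values measure only the spread between libraries.

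In MASH, fat-laden hepatocytes and liver macrophages release chemokines. Ccl2 is the ligand that draws Ccr2-bearing monocytes out of the blood, and these cells become macrophages that take up lipid and debris. Stellate cells lay down collagen, lymphocytes enter the tissue, and hepatocytes lose part of their metabolic programme. PPARα, encoded by Ppara, is the nuclear receptor that turns on fatty acid oxidation in hepatocytes, and fatty acids and their derivatives are among its ligands. N-acyl amino acids such as C18:1-leucine are made and split by amidases and acyltransferases, and leucine itself is broken down through the branched-chain amino acid pathway. The title of the series names lipidated amino acids, PPARα and CCL2.

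The labels of 2 of the 7 libraries disagree with themselves. C18:1 replicate 1 has a treatment tag that names diet only, and C18:1-leucine replicate 1 has the tag of C18:1. Groups here follow the titles. With groups from the tags no gene passed the test with edgeR (lowest adjusted p = 0.17, with 1956 genes at an unadjusted p under 0.05). The sign was kept there for 2529 of the 2544 genes called with groups from the titles. Those genes were chosen by the titles, and all but 2 of the 7 libraries keep their group under the tags. Kept signs were thus likely beforehand and cannot decide between the labels. Every count below rests on the titles being right. Another library stands apart for a different reason. In C18:1-leucine replicate 2 the summed level of 29 pancreatic genes was 1571 CPM. CPM is the count per 1000000 counts of the library, its size scaled by edgeR's TMM factor. The sum was 5.02 and 5.61 CPM in the other 2 libraries of that group and 5.03 to 7.72 CPM with C18:1. The albumin of C18:1-leucine replicate 2 was nevertheless that of liver (Alb, 55507, 49128 and 38513 CPM in C18:1-leucine replicates 1, 2 and 4). Outside the compared groups, chow replicate 2 had 427 CPM of these pancreatic genes, beside 7.27 to 7.94 CPM in the other chow libraries. Library totals ran from 33821874 to 51107248 counts. The summed level of red blood cell genes was 319.9, 754, 312 and 265 CPM with C18:1 and 1238, 1265 and 626 CPM with C18:1-leucine, and the groups overlapped. Bulk RNA cannot tell fewer cells of a type from less RNA per cell.

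With C18:1-leucine, many genes of macrophages, chemokines, interferon response, antigen presentation and matrix were lower than with C18:1, and many genes of hepatocyte metabolism were higher. Of 15674 tested genes, 1151 (7.34%) were higher and 1393 (8.89%) lower at an adjusted p under 0.05 (edgeR quasi-likelihood test, Benjamini-Hochberg). These are 16.2% of the tested genes. Without adjustment, 5014 tested genes had a p under 0.05 in this test. Falls were larger than rises: 543 of the lower genes and 100 of the higher ones differed at least 2-fold, and the median log2 fold change was −0.86 among the lower genes and 0.40 among the higher ones. The 7 libraries of the 2 groups did not overlap for 1300 of the lower and 1041 of the higher genes. Over all tested genes, without regard to the test, they did not overlap for 2229 (14.2%) in the lower direction and 2114 (13.5%) in the higher. The median log2 fold change of all tested genes was −0.02.

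The number of calls moved widely with single libraries. Without C18:1-leucine replicate 2 it was 289 higher (1.84% of the genes tested then) and 481 lower (3.07%). Without C18:1-leucine replicate 1 it was 464 (2.97%) and 830 (5.31%), and without replicate 4 it was 1237 (7.92%) and 1248 (8.0%). Leaving out C18:1 replicate 1 gave 465 (2.99%) and 772 (4.96%), replicate 2 gave 1434 (9.17%) and 1609 (10.3%), replicate 3 gave 817 (5.25%) and 1249 (8.03%), and replicate 4 gave 470 (3.01%) and 768 (4.92%). Without both libraries whose labels disagree it was 115 (0.744%) and 402 (2.6%). Counts of list members given below for these settings are to be read against these shares. Of the 117 genes named below that passed, 64 kept the call without both those libraries and 53 did not. The latter include Ccr2, Cxcl10, Cd5, Cd3d, Col4a1, Mcm2, Mcm3, Lpl, Alb, Otc, Apoh, Sar1b, Pcca, Uqcrb and Ndufb5. A call said to hold without any library held when each of the 7 was left out alone. With DESeq2 10.2% of genes were higher and 11.6% lower, and with limma voom 13.1% and 15.4%. Against a minimum change of 1.5-fold only 1 gene was higher and 5 were lower. On the first principal component of the 7 libraries (45.0% of the variance), C18:1 replicate 2 (−2.91) lay nearer to C18:1-leucine replicate 4 (−10.3) than to the other C18:1 libraries, which lay at 27.6 to 48.5. C18:1-leucine replicates 1 and 2 lay at −48.2 and −44.1.

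**Figure D1:**
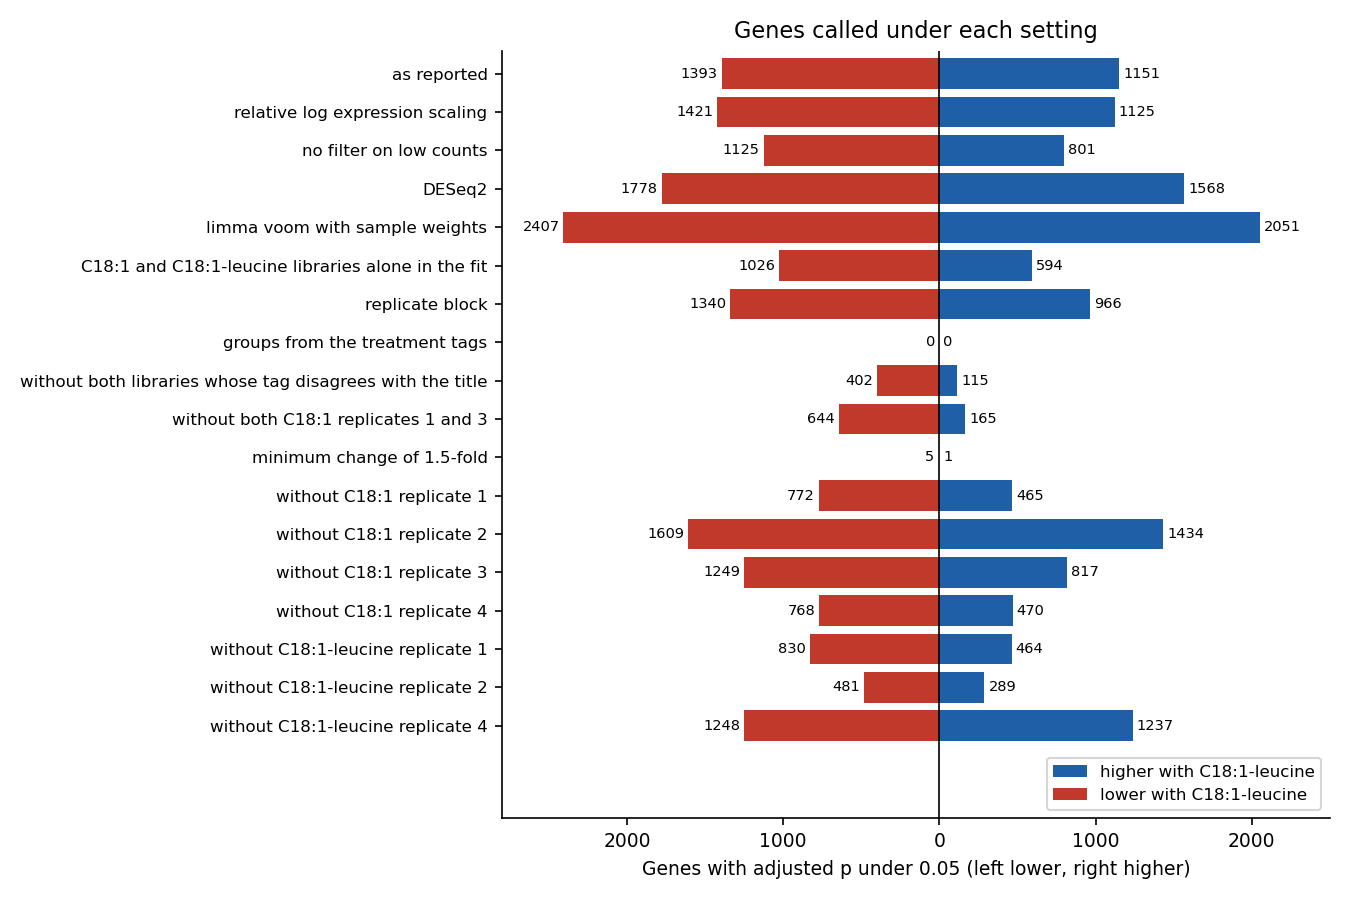
Number of genes called higher and lower with C18:1-leucine than with C18:1 (horizontal axis) under the reported test and each alternative (vertical axis). The count is 1151 higher and 1393 lower with groups from the titles and 0 in each direction with groups from the treatment tags.

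Ccl2 (ENSMUSG00000035385; chr11:82035571-82037453, plus strand, GRCm38) was among the genes with the smallest p. Its transcripts stood at 4.57, 3.89, 3.02 and 4.69 CPM in the C18:1 livers, replicates 1 to 4, and at 0.752, 0.907 and 1.23 CPM in the C18:1-leucine livers. Every C18:1 library was above every C18:1-leucine library, and the groups differed by a log2 fold change of −2.07 ± 0.25 (95% interval −2.60 to −1.54, edgeR adjusted p = 0.00224). The call held when any of the 7 libraries was left out. The authors' deposited table gives −2.06 for it (adjusted p = 0.00242). MASH livers stood at 2.69, 3.77 and 4.05 CPM and chow livers at 0.201, 0.148, 0.126 and 0.0883 CPM. All 3 C18:1-leucine libraries thus lay above every chow library and below every MASH library.

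Many other chemokine ligands were lower too. Of 23 tested ligands, 12 fell and 2 rose, with a median of −1.53. Ccl6 (−1.55), the macrophage-derived Cxcl16 (−0.93) and the interferon-induced Cxcl10, which attracts activated T cells, were lower. Cxcl10 stood at 9.90, 8.63, 5.12 and 16.5 CPM with C18:1 and 3.39, 2.80 and 3.11 CPM with C18:1-leucine. No library overlapped between the groups, and the log2 fold change was −1.69 ± 0.35 (adjusted p = 0.00924). Its level in C18:1 replicate 4 was the highest of the 7. The 2 ligands that rose, named here after their values were seen, were Cxcl12 (0.63), a constitutive stromal chemokine, and Ccl27a (0.31). Cxcl12 lost its call without C18:1-leucine replicate 1 (adjusted p = 0.0577), and Ccl27a without any of C18:1 replicates 1, 3 and 4 or C18:1-leucine replicates 2 and 4 (0.0560 to 0.112). The count of falls was 5 without C18:1-leucine replicate 2 and 3 without both libraries whose labels disagree.

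The receptors included Ccr2, the receptor for Ccl2 on monocytes. It stood at 18.4, 14.2, 16.4 and 18.02 CPM with C18:1 and 5.28, 5.37 and 7.94 CPM with C18:1-leucine, a log2 fold change of −1.43 ± 0.29 (adjusted p = 0.00874). Its highest C18:1-leucine value, in replicate 4, was below its lowest C18:1 value. Ccr1 (−1.95) and Cxcr3 (−1.33), a chemokine receptor that T cells carry, fell too. Both lost the call without C18:1-leucine replicate 2 (adjusted p = 0.0596 and 0.0522). Ccr2 lost it without both libraries whose labels disagree (−1.28, adjusted p = 0.0771). In all, 6 of 17 tested receptors fell and none rose, with 2 without C18:1-leucine replicate 2 and 1 without both libraries whose labels disagree.

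Genes of recruited, lipid-associated macrophages fell as a group. Of 26 tested, 19 fell and none rose, 25 had a negative log2 fold change, and the median was −1.09. Cd14, the co-receptor for bacterial lipopolysaccharide, stood at 17.6, 19.8, 14.8 and 22.4 CPM with C18:1 and 6.96, 6.40 and 7.15 CPM with C18:1-leucine. The C18:1-leucine libraries lay within a narrow band at less than the lowest C18:1 value, and the log2 fold change was −1.44 ± 0.15 (adjusted p = 0.00203). Lgals3, which encodes galectin-3, stood at 63.2, 48.4, 49.9 and 71.9 CPM with C18:1 and 15.9, 18.9 and 23.1 CPM with C18:1-leucine (−1.60 ± 0.20, adjusted p = 0.00256). Mmp12, a macrophage elastase, stood at 55.4, 63.0, 37.0 and 53.3 CPM and 6.96, 14.5 and 19.4 CPM (−1.94 ± 0.30, adjusted p = 0.00329). For both genes the groups did not overlap, and among the C18:1-leucine libraries replicate 1 was lowest and replicate 4 highest. Capg, an actin-capping protein of macrophages (−1.48), and the integrin Itgax, also known as CD11c (−1.45), fell as well. The 5 genes named in this paragraph kept the call when any of the 7 libraries was left out. The list had 11 falls without C18:1-leucine replicate 2 and 8 without both libraries whose labels disagree.

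**Figure D2:**
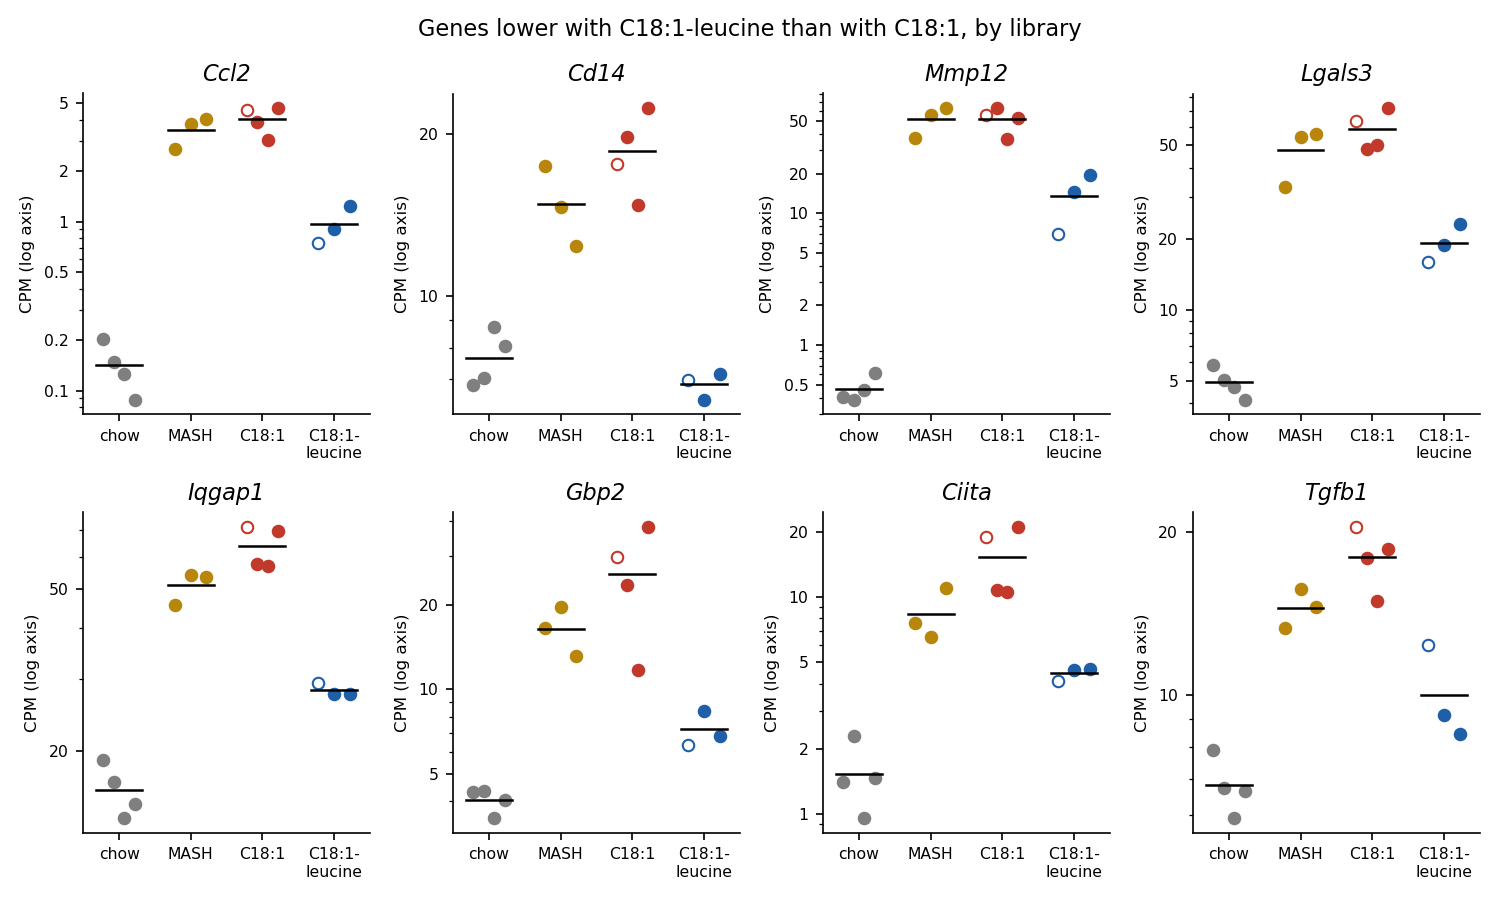
Level of 8 genes that were lower with C18:1-leucine than with C18:1, in CPM on a log axis (vertical), for each library of the 4 groups (horizontal). Points are libraries, open symbols mark the 2 libraries whose tag disagrees with their title, and black lines are group means. In each panel all 3 C18:1-leucine libraries lie below all 4 C18:1 libraries.

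Other myeloid genes followed. Among C1q and Fc receptor genes 8 of 11 fell and none rose (median −0.97; 6 without both libraries whose labels disagree). Named members were the high-affinity immunoglobulin receptor Fcgr1 (−1.29), the complement subunit C1qb (−1.004), the immunoglobulin receptor Fcgr3 (−1.06) and its signalling chain Fcer1g (−0.97). Genes that mark resident Kupffer cells were different in count. Only 2 of 15 fell (median −0.54), Id1 (−1.15) and Id3 (−1.14), regulators that other liver cells express too and that are named here after their values were seen. Id1 lost its call without C18:1-leucine replicate 1 (adjusted p = 0.0639) or 2 (0.0848), and Id3 without C18:1 replicate 3 (0.0695) or 4 (0.0849) or C18:1-leucine replicate 2 (0.129) or 4 (0.0790). The summed level of the Kupffer list overlapped between the groups, at 1030.3, 1362, 897 and 1466 CPM with C18:1 and 1199.6, 1026 and 671 CPM with C18:1-leucine. That of the recruited macrophage list did not, at 3836, 3096, 3344 and 3819 CPM and 2079, 2118 and 2336 CPM. The Kupffer median turned on single libraries. It was −0.98 without C18:1-leucine replicate 1, −0.151 without replicate 4 and −0.913 without both libraries whose labels disagree. The recruited macrophage median was −1.104, −1.065 and −1.001 in these settings. The low count of Kupffer calls therefore does not show that these genes were spared, and the difference between the lists was not tested.

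Among cytokine, inflammasome and Toll-like receptor genes, 23 of 41 fell and 1 rose (median −0.86). The interleukin-1 receptor antagonist Il1rn changed by −1.57 (adjusted p = 0.00299), and Nfkb2, a subunit of NF-κB, changed by −0.86. The gene that rose was Il1rap (0.67), the accessory chain of the interleukin-1 receptor, at 65.2, 87.7, 72.3 and 72.3 CPM with C18:1 and 126, 123 and 106 CPM with C18:1-leucine. These groups did not overlap. The falls numbered 15 without C18:1 replicate 4, 13 without C18:1-leucine replicate 2 and 8 without both libraries whose labels disagree. Of lysosomal genes 13 of 31 fell and 3 rose (median −0.29), with 7 falls without C18:1-leucine replicate 2 and 3 without both libraries whose labels disagree. The falls included Laptm5 (−1.17), Ctss (−1.15) and Cd68 (−1.14), which immune cells express, and Psap (−0.64), which most cells express.

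By size, the largest falls among the genes named by rule included Acod1, Slamf8 and Ubd. Acod1 makes itaconate in activated macrophages and stood at 2.02, 5.85, 0.593 and 2.93 CPM with C18:1 and 0.322, 0.285 and 0.425 CPM with C18:1-leucine (−3.02 ± 0.59, adjusted p = 0.00742). Its C18:1 values spread widely, from replicate 3 at the bottom to replicate 2 at the top, and none reached down to the C18:1-leucine values. Slamf8, a receptor of activated myeloid cells, changed by −2.37 ± 0.32, and Ubd, a ubiquitin-like protein induced by interferon, by −2.15 ± 0.34. Sprr1a, a protein of stressed epithelia, also fell. It stood at 0, 0, 0 and 0 CPM on chow, 0.931, 2.61 and 2.66 CPM in MASH, 4.81, 1.76, 1.46 and 3.04 CPM with C18:1 and 0.0429, 0.493 and 0.626 CPM with C18:1-leucine, a change between the treatments of −2.84 ± 0.73. It lost the call without any of C18:1 replicates 1 (adjusted p = 0.0676) and 4 (0.0647) or C18:1-leucine replicates 1 (0.0547) and 2 (0.0847). Bmp8b (−2.18; adjusted p = 0.0508 without C18:1-leucine replicate 2) fell as well.

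Genes with the smallest p included several that are not immune genes by name. Iqgap1, a scaffold of the actin cytoskeleton, stood at 71.3, 57.5, 56.9 and 69.4 CPM with C18:1 and 29.4, 27.6 and 27.6 CPM with C18:1-leucine. The C18:1-leucine libraries lay within a narrow range far below the C18:1 libraries, and the log2 fold change was −1.18 ± 0.12 (adjusted p = 0.00203). Galnt6, which starts mucin-type glycosylation (−1.19), the efflux pump Abcc1 (−1.15) and the microtubule linker Clip2 (−1.27) were lower too. In the other direction stood the zinc finger gene Zfp385b (0.998 ± 0.118) and Gcat, an enzyme of threonine breakdown (0.63 ± 0.07). All 6 kept their calls without any of the 7 libraries.

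Interferon response genes fell in C18:1-leucine livers. Of 33 tested, 21 fell, none rose, and 32 had a negative log2 fold change (median −0.70). Gbp2, a guanylate-binding protein of cell-autonomous defence, stood at 29.7, 23.7, 11.8 and 38.1 CPM with C18:1 and 6.36, 8.40 and 6.84 CPM with C18:1-leucine. The lowest C18:1 value, in replicate 3, was above all C18:1-leucine values, and the change was −1.84 ± 0.31 (adjusted p = 0.00434). Oas3, an oligoadenylate synthetase that senses double-stranded RNA, stood at 6.72, 8.49, 7.20 and 14.2 CPM and 2.17, 3.14 and 2.86 CPM (−1.75 ± 0.30, adjusted p = 0.00452). Its relative Oasl2 stood at 19.4, 18.5, 20.5 and 25.04 CPM and 7.15, 8.89 and 9.99 CPM (−1.27 ± 0.14, adjusted p = 0.00224). All these values left the groups apart. Oas2 also fell (−1.34). Not every gene of the list passed. Ifit1, named here after its values were seen, stood at 15.3, 22.0, 21.9 and 31.1 CPM and 17.1, 16.2 and 18.2 CPM, with a log2 fold change of −0.39 ± 0.19 (95% interval −0.81 to 0.02, adjusted p = 0.174). Without both libraries whose labels disagree, 13 of the list fell.

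Many interferon-induced genes carry an interferon-stimulated response element close to their start, so the 250 bases upstream of each start in the RefSeq promoter table (GRCm38.p6) were searched on both strands for its core, TTTCNNTTTC. The core was in 978 of 32851 windows (2.98%). Of the interferon list, 25 genes had a window, and 15 of them held the core (15 of 29 windows, 51.7%). Among members that fell it was in 9 of 19 windows (47.4%), and among members that did not pass in 6 of 10 (60.0%). Over all genes, 4.71% of windows of the genes that fell and 2.58% of those of the genes that rose held it. The window of 1 member of each kind is printed: Gbp2 and Oas3 fell and hold the core, Oasl2 fell without it, and Ifit1 did not pass and holds 2 copies. Sequences run 5′ to 3′ along the gene, with the core or its reverse complement in capitals.
Gbp2 (chr3:142620413-142620662, plus strand): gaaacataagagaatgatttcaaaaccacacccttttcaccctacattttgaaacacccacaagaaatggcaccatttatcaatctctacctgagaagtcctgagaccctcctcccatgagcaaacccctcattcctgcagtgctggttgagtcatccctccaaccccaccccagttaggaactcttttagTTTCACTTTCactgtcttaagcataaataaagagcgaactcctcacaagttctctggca
Oas3 (chr5:120777660-120777909, minus strand): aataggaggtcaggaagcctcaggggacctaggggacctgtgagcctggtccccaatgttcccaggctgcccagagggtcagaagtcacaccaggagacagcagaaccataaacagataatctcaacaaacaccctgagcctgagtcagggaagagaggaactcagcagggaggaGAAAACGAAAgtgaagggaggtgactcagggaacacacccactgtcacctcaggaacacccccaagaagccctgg
Oasl2 (chr5:114896684-114896933, plus strand): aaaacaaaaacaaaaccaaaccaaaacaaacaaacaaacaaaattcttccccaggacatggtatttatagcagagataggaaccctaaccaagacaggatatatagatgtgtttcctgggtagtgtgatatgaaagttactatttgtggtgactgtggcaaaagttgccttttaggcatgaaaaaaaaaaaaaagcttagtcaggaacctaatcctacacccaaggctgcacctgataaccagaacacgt
Ifit1 (chr19:34640639-34640888, plus strand): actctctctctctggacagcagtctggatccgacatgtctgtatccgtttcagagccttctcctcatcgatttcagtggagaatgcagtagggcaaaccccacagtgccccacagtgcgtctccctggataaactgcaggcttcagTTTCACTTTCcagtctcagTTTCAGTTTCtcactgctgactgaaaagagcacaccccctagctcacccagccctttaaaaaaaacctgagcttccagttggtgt
In Gbp2 the first base of the match lies 59 bases before the start and in Oas3 75 bases. In Ifit1 the matches begin 104 and 85 bases before it. A match describes the letters only.

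Antigen presentation genes fell beside them. Of 27 tested, 16 fell, none rose, and all 27 had a negative log2 fold change (median −0.62). Ciita, the master regulator of MHC class II genes, stood at 19.0, 10.8, 10.6 and 21.2 CPM with C18:1 and 4.10, 4.61 and 4.65 CPM with C18:1-leucine. The groups did not overlap, and the C18:1 livers themselves split, with replicates 1 and 4 above replicates 2 and 3. The change was −1.79 ± 0.30 (adjusted p = 0.00452). H2-DMa, which loads peptides on class II molecules (−1.59), and the peptide transporters Tap1 (−0.77) and Tap2 (−0.55) of the class I route fell as well. The list had 10 falls without C18:1-leucine replicate 2 and 6 without both libraries whose labels disagree. Of 12 dendritic cell genes only Irf8 fell (−0.99), a factor that macrophages share. That is 8.33%, beside 8.89% of all tested genes. Of the 12, 11 had a negative log2 fold change, and the median was −0.70.

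T and NK cell genes were low in every library and lower with C18:1-leucine. Of 28 tested, 14 fell, none rose and all 28 had a negative log2 fold change (median −1.47). Cd5, a surface protein of T cells, stood at 0.882, 0.568, 0.683 and 1.17 CPM with C18:1 and 0.129, 0.181 and 0.0894 CPM with C18:1-leucine (−2.63 ± 0.54, adjusted p = 0.00910). Cd3d, a chain of the T cell receptor complex, stood at 0.922, 0.625, 0.593 and 1.59 CPM and 0.215, 0.311 and 0.291 CPM (−1.77 ± 0.39, adjusted p = 0.0105). Both genes kept their calls without any of the 7 libraries. The list did not: 5 members fell without C18:1 replicate 1, 4 without C18:1 replicate 4, 7 without C18:1-leucine replicate 1, 3 without replicate 2 and 6 without replicate 4, and 1 fell without both libraries whose labels disagree. Its summed level was 41.7, 23.7, 20.7 and 43.3 CPM with C18:1 and 14.7, 14.9 and 13.8 CPM with C18:1-leucine, so that C18:1 replicates 1 and 4 were the high ones. Of 16 B and plasma cell genes only Cd22 fell (−0.99), an inhibitory receptor of B cells. That is 6.25%, beside 8.89% of all tested genes, and the list's median was −0.28.

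With all 7 libraries neutrophil genes gave no common direction (median 0.28). Of 13 tested only Csf3r fell (−1.11), the receptor for granulocyte colony-stimulating factor, and it lost the call without C18:1-leucine replicate 2 (adjusted p = 0.0661). Without C18:1-leucine replicate 1 the list's median was −1.985, with 4 falls of 11 tested. Without both libraries whose labels disagree it was −2.06, with 2 falls of 10 tested. The summed level of the neutrophil list overlapped between the groups. It was 115, 340, 502 and 138 CPM with C18:1 and 308, 39.95 and 42.0 CPM with C18:1-leucine. By this sum C18:1 replicate 3 was the highest of the 7 libraries. The calprotectin genes turned on 1 library. S100a8 stood at 1.74, 4.57, 1.98 and 1.39 CPM with C18:1 and 14.9, 0.518 and 0.693 CPM with C18:1-leucine, and S100a9 at 2.21, 7.19, 3.09 and 2.24 CPM and 22.3, 0.648 and 0.805 CPM. In both, C18:1-leucine replicate 1 was the highest of the 7 libraries and replicates 2 and 4 the lowest. The log2 fold changes of 1.16 (adjusted p = 0.394) and 1.12 (adjusted p = 0.446) became −1.98 (adjusted p = 0.0451) and −2.32 (adjusted p = 0.0428) without that library.

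Matrix genes fell in part. Of 35 matrix proteins, crosslinkers and proteases, 14 fell and none rose (median −0.74). Mmp13, an interstitial collagenase, stood at 8.38, 7.61, 3.22 and 9.39 CPM with C18:1 and 0.601, 1.24 and 1.43 CPM with C18:1-leucine (−2.71 ± 0.38, adjusted p = 0.00304). Tnc, tenascin-C of injured tissue, stood at 5.63, 9.29, 8.98 and 6.15 CPM and 2.75, 3.14 and 2.03 CPM (−1.51 ± 0.31, adjusted p = 0.00915). In both genes the groups were apart. The count was 7 without C18:1 replicate 1, 8 without C18:1-leucine replicate 1, 5 without C18:1-leucine replicate 2 and 5 without both libraries whose labels disagree. It was 6 (median −0.33) without both C18:1 replicates 1 and 3, the 2 libraries highest in bile duct genes. In that setting 165 genes were higher and 644 lower of 15379 tested.

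Fibrillar collagen itself was less clear. Of 24 collagen chains 6 fell and none rose (median −0.71). Col4a1, a chain of basement membrane collagen, stood at 175, 99.1, 138 and 126 CPM with C18:1 and 60.1, 67.7 and 85.0 CPM with C18:1-leucine, with a change of −0.93 ± 0.18 (adjusted p = 0.00732) and no overlap. Its partner Col4a2 (−0.81) lost the call without C18:1-leucine replicate 1 (adjusted p = 0.0644) or 2 (0.0542). The fibrillar chain Col3a1 (−1.35) fell too, while Col1a1 (−1.45, 95% interval −2.49 to −0.40, adjusted p = 0.0600) and Col1a2 (−1.07, 95% interval −1.99 to −0.15, adjusted p = 0.106) did not pass. These 3 are named after their values were seen. Col1a1 and Col1a2 passed with DESeq2 (0.0222 and 0.0307), with limma voom (0.00747 and 0.0157) and with the replicate number as a block (0.0118 and 0.0311). Col3a1 lost its call without any of the 7 libraries other than C18:1 replicate 2 (adjusted p from 0.0538 to 0.168), and without C18:1 replicate 2 Col1a1 (0.0254) and Col1a2 (0.0330) passed. Collagen falls numbered 2 without C18:1 replicate 1, 3 without replicate 3 or 4, 1 without C18:1-leucine replicate 1 or 2, and 0 without both libraries whose labels disagree, and they numbered 12 without C18:1 replicate 2. Without both C18:1 replicates 1 and 3 the list had 1 fall and 1 rise (median −0.11).

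The cytokine that drives collagen synthesis fell more evenly. Tgfb1 stood at 20.4, 17.9, 14.9 and 18.6 CPM with C18:1 and 12.3, 9.18 and 8.47 CPM with C18:1-leucine, a change of −0.84 ± 0.15 (adjusted p = 0.00452) that held without any of the 7 libraries. The integrin Itgav, which helps activate it, changed by −0.46. Of 25 TGF-beta ligands, receptors and targets 6 fell and none rose (median −0.44), with 3 falls without C18:1-leucine replicate 1 or 2, 11 without C18:1 replicate 2 and 2 without both libraries whose labels disagree. This list had 2 falls (median −0.19) without both C18:1 replicates 1 and 3. Stellate cell and myofibroblast genes were not called as such. Of 18, Vim fell (−0.83), an intermediate filament of many mesenchymal and immune cells, and lost the call without C18:1 replicate 1 (adjusted p = 0.0587) or C18:1-leucine replicate 1 (0.0801) or 2 (0.0946). Hhip, an inhibitor of hedgehog signalling, rose from 0.762, 0.682, 0.323 and 0.4999 CPM with C18:1 to 2.96, 1.58 and 1.18 CPM with C18:1-leucine (1.76 ± 0.34, adjusted p = 0.00737), without overlap.

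Bile duct and endothelial genes added few calls. Of 18 cholangiocyte genes 1 fell (5.56%, beside 8.89% of all tested genes). It was Sox9 (−0.64), which lost the call without any of 6 of the 7 libraries (adjusted p from 0.0588 to 0.108). Yet 17 of the 18 had a negative log2 fold change, and the cholangiocyte median was −1.01. That median was 0.12 without both C18:1 replicates 1 and 3. The summed level of the cholangiocyte list was 558, 194, 514 and 225 CPM with C18:1 and 128, 147 and 295 CPM with C18:1-leucine. The groups thus overlapped, and C18:1 replicates 1 and 3 were the highest. Of 22 sinusoidal endothelial genes only Plvap fell (−0.60), a marker of capillary-like endothelium, and the list's median was 0.01. Cell cycle genes fell in part: 8 of 33 (median −1.02), among them the replication licensing genes Mcm2 (−0.88) and Mcm3 (−0.59), which kept their calls without any library. That count was 2 without C18:1 replicate 1 or C18:1-leucine replicate 1 or 2, 3 without C18:1 replicate 4, 13 without C18:1-leucine replicate 4 and 0 without both libraries whose labels disagree.

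The receptor in the title of the series did not pass with edgeR. Ppara (ENSMUSG00000022383; chr15:85734983-85802819, plus strand) stood at 126, 139.6, 126 and 92.4 CPM with C18:1 and 155, 172 and 129.7 CPM with C18:1-leucine. The groups overlapped, since C18:1-leucine replicate 4 lay below C18:1 replicate 2. The log2 fold change was 0.33 ± 0.14 (95% interval 0.02 to 0.63, adjusted p = 0.129). It passed with limma voom (0.45, adjusted p = 0.0268) and with the replicate number as a block (0.38, adjusted p = 0.0242), and with none of the other alternatives. Of 14 PPAR receptors, partners and coactivators none passed with edgeR. At an unadjusted p under 0.05 there were 3, beside 5014 of all 15674 tested genes. DESeq2 called 1, limma voom 3 and edgeR with the block 2. Pparg, the receptor of fat cells and lipid-laden cells, gave −0.68 ± 0.25 (adjusted p = 0.0857) and passed when C18:1-leucine replicate 4 was left out (adjusted p = 0.0311), with DESeq2 (0.0424) and with limma voom (0.0137).

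Few target genes of PPARα passed. Of 51 tested, 3 rose (5.88%) and 3 fell (5.88%), beside 7.34% and 8.89% of all tested genes. Their median was 0.20, and 37 had a positive log2 fold change, as had 7566 of all 15674 tested genes. Without regard to the test, 11 were higher without overlap, beside 13.5% of all tested genes. An unadjusted p under 0.05 was met by 18, beside 5014 of all 15674. DESeq2 called 7 higher and 4 lower and limma voom 6 and 6. The rises numbered 1 without C18:1 replicate 1 or 4 or C18:1-leucine replicate 1, 5 without C18:1-leucine replicate 4 and 0 without both libraries whose labels disagree. The falls numbered 1 without C18:1-leucine replicate 2, 7 without replicate 4 and 1 without both libraries whose labels disagree. The rises were the acyl-CoA thioesterases Acot3 and Acot4 (1.09) and the mitochondrial enoyl-CoA isomerase Eci2 (0.45). Acot3 stood at 2.25, 1.96, 4.85 and 2.06 CPM with C18:1 and 33.5, 14.9 and 10.4 CPM with C18:1-leucine. All C18:1 libraries were below all C18:1-leucine libraries, and the change was 2.80 ± 0.66 (adjusted p = 0.0157). The call was lost without C18:1 replicate 1 (adjusted p = 0.0531) or 4 (0.0514) or C18:1-leucine replicate 1 (0.0671), and that of Acot4 without C18:1 replicate 1 (0.0615) or 4 (0.0535) or C18:1-leucine replicate 1 (0.0770) or 2 (0.0622). MASH livers spread across both, at 27.3, 7.64 and 2.48 CPM, and Acot3 shares sequence with its neighbours in the Acot cluster. The falls were Ucp2 (−0.97 ± 0.12, adjusted p = 0.00241), a mitochondrial carrier that macrophages also express, Hilpda (−0.88; adjusted p = 0.0527 without C18:1-leucine replicate 2), an inhibitor of lipolysis, and Plin2. Plin2, the main coat protein of lipid droplets in hepatocytes, stood at 1072, 994, 919.7 and 1201 CPM with C18:1 and 468, 571 and 780.0 CPM with C18:1-leucine (−0.79 ± 0.25, adjusted p = 0.0469). The groups did not overlap, yet the call ended without any of 6 of the 7 libraries (adjusted p from 0.0552 to 0.171).

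Lipid handling genes split. Of 17 uptake and binding genes 3 rose and 3 fell. Lpl, lipoprotein lipase of macrophages and fat cells, fell from 202, 149, 171 and 204 CPM to 91.7, 82.4 and 106 CPM (−0.96 ± 0.20, adjusted p = 0.00894), whereas Lipc, the hepatic lipase, rose from 95.3, 97.5, 102 and 92.4 CPM to 129, 126 and 135 CPM (0.43 ± 0.07, adjusted p = 0.00336). Neither pair of groups overlapped, and both calls held without any library. Lpl lost its call without both libraries whose labels disagree (−0.89, adjusted p = 0.0728). The list had 1 rise and 1 fall without any of C18:1 replicates 1, 3 and 4 or C18:1-leucine replicates 1 and 2, and 1 rise and 0 falls without both libraries whose labels disagree. Of 23 synthesis, desaturation and elongation genes 3 fell (Elovl7 −1.96, Scd2 −0.92, Elovl1 −0.37) and none rose, and each lost its call without C18:1-leucine replicate 2 (adjusted p = 0.0835, 0.0827 and 0.0625). Elovl7 and Scd2 also lost it without C18:1 replicate 1 (0.0513 and 0.0519) or C18:1-leucine replicate 1 (0.0501 and 0.0520). Of 24 cholesterol synthesis and uptake genes 3 rose, among them Stard4 (0.87), a sterol carrier; its call ended without C18:1 replicate 1 (adjusted p = 0.0554) or 4 (0.0697) or C18:1-leucine replicate 1 (0.0679) or 2 (0.0895). No gene of that list passed in any of these 4 settings or without both libraries whose labels disagree. In that list 23 of 24 genes were lower in MASH than on chow.

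Some hepatocyte genes rose. Of 32 genes of hepatocyte identity and function 9 rose (28.1%) and none fell (median 0.45). Alb, which encodes albumin, stood at 28814, 31675, 29559.7 and 29848 CPM with C18:1 and 55507, 49128 and 38513 CPM with C18:1-leucine. The groups were apart, C18:1-leucine replicate 4 being nearest to the C18:1 livers, and the change was 0.67 ± 0.15 (adjusted p = 0.0104), lost without C18:1-leucine replicate 2 (adjusted p = 0.0518). The ethanol-oxidising Cyp2e1 rose by 0.79 and the urea cycle enzyme Otc by 0.61, and both kept the call without any library. The list had 4 rises without C18:1-leucine replicate 2, 15 without C18:1 replicate 2 and 1 without both libraries whose labels disagree. Complement and coagulation factors gave 9 rises of 34 and no fall (median 0.34), among them C8g (0.57), a chain of the membrane attack complex. That count was 2 without C18:1 replicate 1 or C18:1-leucine replicate 1, 3 without C18:1 replicate 4, 1 without C18:1-leucine replicate 2, 15 without C18:1-leucine replicate 4 and 0 without both libraries whose labels disagree.

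Genes of the male liver programme, which growth hormone pulses maintain, were among the largest rises. Of 18 male-biased genes 8 rose and none fell (median 0.79; 4 without C18:1-leucine replicate 2 and 3 without both libraries whose labels disagree). Slco1a1, an organic anion transporter, stood at 143, 67.4, 41.1 and 107 CPM with C18:1 and 294, 394 and 261 CPM with C18:1-leucine (1.82 ± 0.32, adjusted p = 0.00525). The lowest C18:1-leucine value was above the highest C18:1 value, and the call held without any library. Hsd3b5, a steroid dehydrogenase of male liver, stood at 16.3, 4.49, 0.467 and 4.93 CPM and 81.7, 103 and 31.8 CPM (3.46 ± 0.82, adjusted p = 0.0165), and lost the call without C18:1 replicate 4 (adjusted p = 0.0539) or C18:1-leucine replicate 2 (0.0591). MASH livers had 2.59, 1.56 and 8.68 CPM of it and chow livers 90.5, 73.2, 44.8 and 47.3 CPM. Moxd1, a monooxygenase-like gene, stood at 0.822, 0.454, 0 and 0.174 CPM and 93.6, 5.88 and 1.48 CPM, a change of 6.57 ± 1.36. Its level was highest in C18:1-leucine replicate 1, a library whose labels disagree, and with groups from the tags the change was −2.69. It lost the call with limma voom (adjusted p = 0.172) and without both libraries whose labels disagree (4.31, adjusted p = 0.0580). Susd4 (1.19) and Cyp2d9 (0.74) rose as well. Of 15 tested female-biased genes 2 rose, the prolactin receptor Prlr (1.08) and Acot3, and none fell (median 0.18). Their number was 0 without C18:1-leucine replicate 1 and without both libraries whose labels disagree, and 1 without C18:1 replicate 1 or 4. The summed level of the 24 female-biased genes counted was 165, 441, 406 and 329 CPM with C18:1 and 730.0, 893 and 561 CPM with C18:1-leucine, without overlap. The difference between the male-biased and the female-biased genes was not tested.

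**Figure D3:**
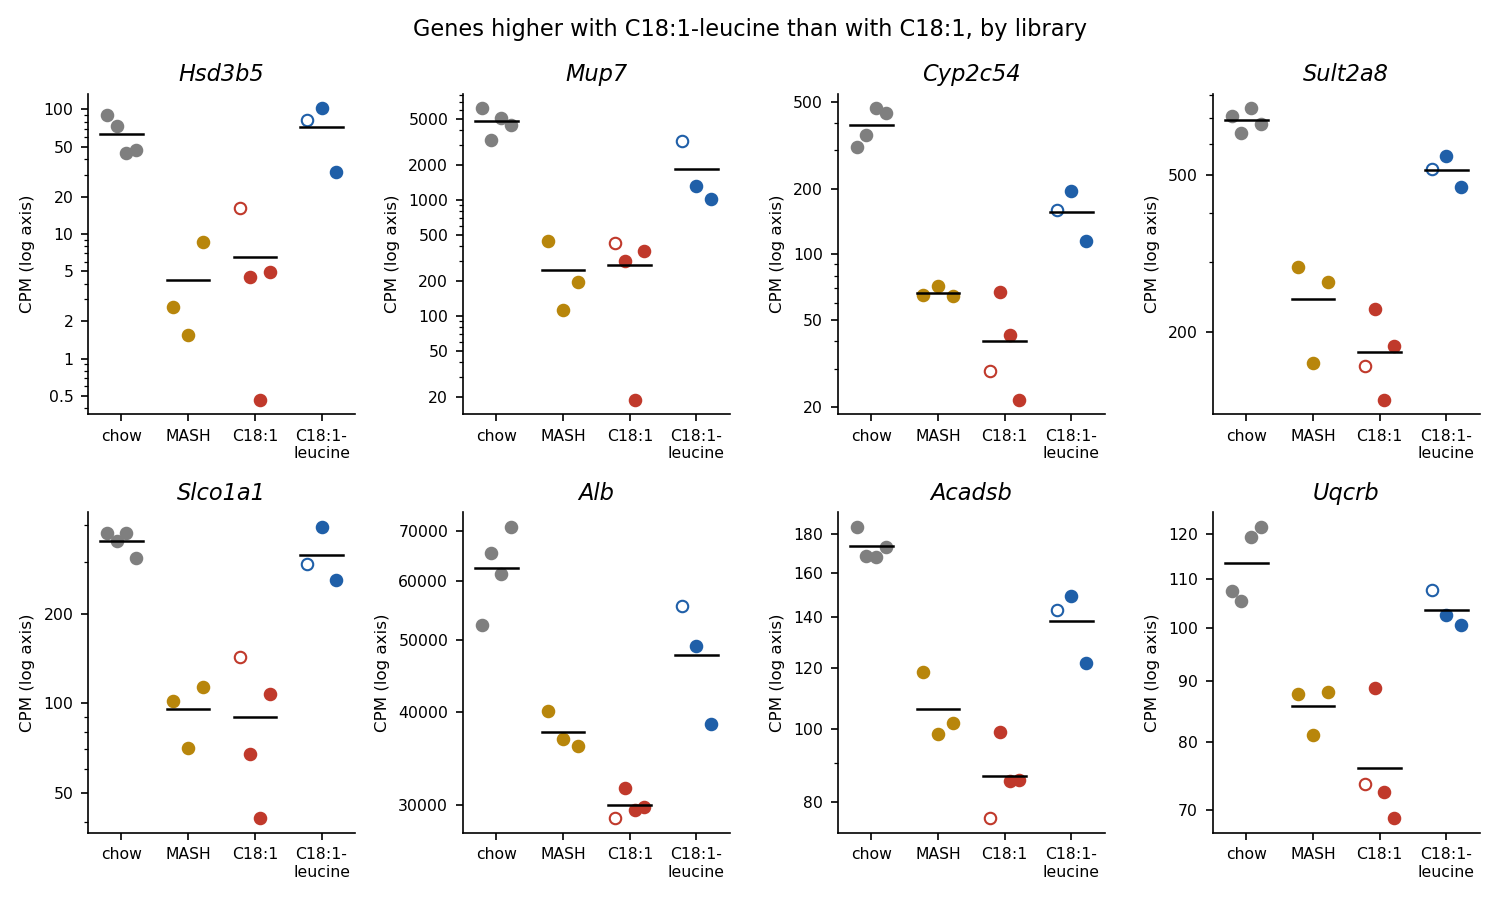
Level of 8 genes that were higher with C18:1-leucine than with C18:1, in CPM on a log axis (vertical), for each library of the 4 groups (horizontal). Points are libraries, open symbols mark the 2 libraries whose tag disagrees with their title, and black lines are group means. In each panel all 3 C18:1-leucine libraries lie above all 4 C18:1 libraries.

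The major urinary proteins, pheromone carriers that male liver secretes, are part of that programme. Of 19 tested genes 13 rose, none fell and all 19 had a positive log2 fold change (median 1.44). Mup21, which differs more from the rest of the cluster, stood at 35.4, 45.9, 27.5 and 32.3 CPM with C18:1 and 69.1, 80.2 and 92.3 CPM with C18:1-leucine (1.19 ± 0.16, adjusted p = 0.00261), without overlap. Mup7 had a larger change and a larger spread, at 422, 299, 19.0 and 366 CPM and 3219, 1313 and 1026 CPM (2.74 ± 0.77, adjusted p = 0.0324), and lost the call without C18:1 replicate 1 (adjusted p = 0.0609), 2 (0.0514) or 4 (0.0685) or C18:1-leucine replicate 1 (0.125) or 2 (0.0627). Reads of these near-identical genes can be divided among them in counting, so single members other than Mup21 are uncertain. The count was 7 without C18:1 replicate 1, 8 without C18:1 replicate 4, 5 without C18:1-leucine replicate 1 and 2 without both libraries whose labels disagree. On the growth hormone axis itself, 4 of 15 genes rose and 1 fell (median 0.47; 1 rise without C18:1-leucine replicate 1, 2 without replicate 2 and 0 without both libraries whose labels disagree). The receptor Ghr gave 0.47 (adjusted p = 0.0530 without C18:1-leucine replicate 2), the secreted growth factor Igf1 0.74 (0.0767 without C18:1-leucine replicate 1), and the factor Stat5a −0.53 (0.0597 without C18:1-leucine replicate 1).

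Many drug-metabolising enzymes were higher. Of 36 tested Cyp1, Cyp2 and Cyp3 genes 15 rose and none fell (median 0.69). Cyp2c54, of a family with near-identical members, stood at 29.4, 67.5, 42.6 and 21.7 CPM with C18:1 and 159, 194 and 115 CPM with C18:1-leucine (1.96 ± 0.31, adjusted p = 0.00354). Of 42 phase II conjugation enzymes 15 rose and none fell (median 0.39). Sult2a8, a sulfotransferase of steroids and bile acids, stood at 164, 229, 134 and 184 CPM and 519, 558 and 466 CPM (1.53 ± 0.19, adjusted p = 0.00224). Ugt2a3, a glucuronosyltransferase, stood at 104, 128, 106 and 108 CPM and 249, 249 and 179 CPM (1.02 ± 0.15, adjusted p = 0.00329). None of these 3 genes overlapped between the groups, and each kept the call without any library. The Cyp count was 8 without C18:1 replicate 1, 9 without C18:1 replicate 4, 7 without C18:1-leucine replicate 2 and 6 without both libraries whose labels disagree. The phase II count was 7 without C18:1 replicate 1 or 4, 8 without C18:1-leucine replicate 1, 3 without C18:1-leucine replicate 2 and 4 without both libraries whose labels disagree.

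Of 28 tested genes of bile acid synthesis and transport, 13 rose and 1 fell (median 0.40). Slc10a1, the sodium-driven importer NTCP of hepatocytes, stood at 213, 331, 307 and 269 CPM with C18:1 and 549.5, 479 and 437 CPM with C18:1-leucine (0.80 ± 0.14, adjusted p = 0.00458), and no library overlapped. The importer Slco1b2 (0.60) and the reductase Akr1c6 (0.62) rose too. The 1 fall was Abcc4 (−0.75), an exporter at the blood side of the cell. These 4 calls held without any library, whereas the number of rises was 5 without C18:1 replicate 1, 8 without replicate 3, 6 without replicate 4, 6 without C18:1-leucine replicate 1, 5 without replicate 2 and 5 without both libraries whose labels disagree. Of 20 apolipoprotein and lipoprotein assembly genes 7 rose and 2 fell, among the rises Apoh (0.52), which kept its call without any library. The rises numbered 3 without C18:1 replicate 1 or C18:1-leucine replicate 2, 2 without C18:1 replicate 4 or C18:1-leucine replicate 1, and 0 without both libraries whose labels disagree.

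Transcripts of genes for the breakdown of branched-chain amino acids, leucine among them, rose almost throughout. Of 24 tested genes 20 rose (83.3%), none fell, and in 22 the groups did not overlap (median 0.43), beside 7.34% and 13.5% of all tested genes. Acadsb, the short and branched-chain acyl-CoA dehydrogenase, stood at 76.3, 99.0, 85.3 and 85.6 CPM with C18:1 and 143, 149 and 122 CPM with C18:1-leucine. The groups were apart and the change was 0.68 ± 0.10 (adjusted p = 0.00329). Auh (0.46), which acts in leucine breakdown, and Mcee (0.46) and Pcca (0.31), which act on propionate from valine and isoleucine, also rose. Single changes were small, and the list's median was near that of the hepatocyte identity genes (0.45). A link to the leucine of the compound was not tested. Bckdk, the kinase that shuts the pathway's main dehydrogenase, was among those that did not pass, and is named here after its values were seen. On chow Acadsb stood at 184, 169, 168 and 173 CPM and in MASH at 119, 98.5 and 102 CPM. The count of rises was 9 without C18:1-leucine replicate 2, 14 to 21 without each other library, and 4 without both libraries whose labels disagree.

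Genes that carry and sense leucine showed no such common rise. Of 26 tested 2 rose (7.69%) and 5 fell (19.2%), beside 7.34% and 8.89% of all tested genes. Their median was −0.09, beside −0.02 for all tested genes. Slc3a2, the heavy chain of the large neutral amino acid exchangers, stood at 45.6, 48.7, 43.6 and 55.6 CPM with C18:1 and 27.4, 30.9 and 31.8 CPM with C18:1-leucine (−0.69 ± 0.11, adjusted p = 0.00331), without overlap. Its light chain Slc7a8 (−1.14) and the transporter Slc43a2 (−0.66) fell, and the leucine sensor Sar1b rose (0.41). These 4 calls held without any library, but Sar1b lost its call without both libraries whose labels disagree (adjusted p = 0.0580). The rises numbered 1 without any of C18:1 replicates 1, 3 and 4 or C18:1-leucine replicates 1 and 2, and 0 without both libraries whose labels disagree. The falls numbered 3 without C18:1-leucine replicate 2 or without both libraries whose labels disagree. Enzymes of N-acyl amino acids and amides gave 5 rises and 1 fall of 17 (median 0.22). The rises included Glyat (0.48), which joins acyl groups to glycine, Aspa (0.75), which splits N-acetylaspartate, and Faah (0.27), the fatty acid amide hydrolase. The fall was Naaa (−0.68), a lysosomal amidase that macrophages express. Faah and Naaa lost their calls without C18:1-leucine replicate 2 (adjusted p = 0.0702 and 0.0848). The rises numbered 3 without C18:1 replicate 4 or C18:1-leucine replicate 1, 2 without C18:1-leucine replicate 2 and 0 without both libraries whose labels disagree. Pm20d1, the secreted enzyme that makes and splits N-acyl amino acids, stood at 65.9, 74.7, 66.7 and 60.7 CPM with C18:1 and 83.6, 87.0 and 71.6 CPM with C18:1-leucine. The groups overlapped, and the change of 0.27 ± 0.09 (95% interval 0.08 to 0.46) did not pass (adjusted p = 0.0528). It passed without C18:1 replicate 2 (0.0228) or C18:1-leucine replicate 4 (0.0216), with DESeq2 (0.0310) and with limma voom (0.00872). The gene was chosen for its known role, after its values were seen.

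Nuclear genes of the mitochondrial respiratory chain rose by small and even amounts. Of 30 tested 27 rose (90.0%), none fell, all 30 had a positive log2 fold change, and in 28 the groups did not overlap (median 0.33). Uqcrb, a subunit of complex III, stood at 73.6, 88.9, 72.5 and 68.9 CPM with C18:1 and 108, 103 and 100.5 CPM with C18:1-leucine. The groups did not overlap, and the change was 0.45 ± 0.09 (adjusted p = 0.00737). Ndufb5 of complex I rose likewise (0.42), and both calls held without any library. The count was 15 without C18:1 replicate 1, C18:1 replicate 4 or C18:1-leucine replicate 2, 13 without C18:1-leucine replicate 1 and 0 without both libraries whose labels disagree. Cytosolic ribosomal proteins all had positive log2 fold changes too, with 5 of 29 called (median 0.17). That count was 0 without C18:1 replicate 1 or 4, C18:1-leucine replicate 1 or both libraries whose labels disagree, 2 without C18:1 replicate 3 or C18:1-leucine replicate 2, and 14 with DESeq2. Beside these rises, the summed level of the hepatocyte list was 64528, 85901, 75369.8 and 70285 CPM with C18:1 and 124195, 111918 and 90589.7 CPM with C18:1-leucine, and the macrophage and T cell sums given above were lower. The part of a changed cell mixture in the hepatocyte rises was not tested.

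**Figure D4:**
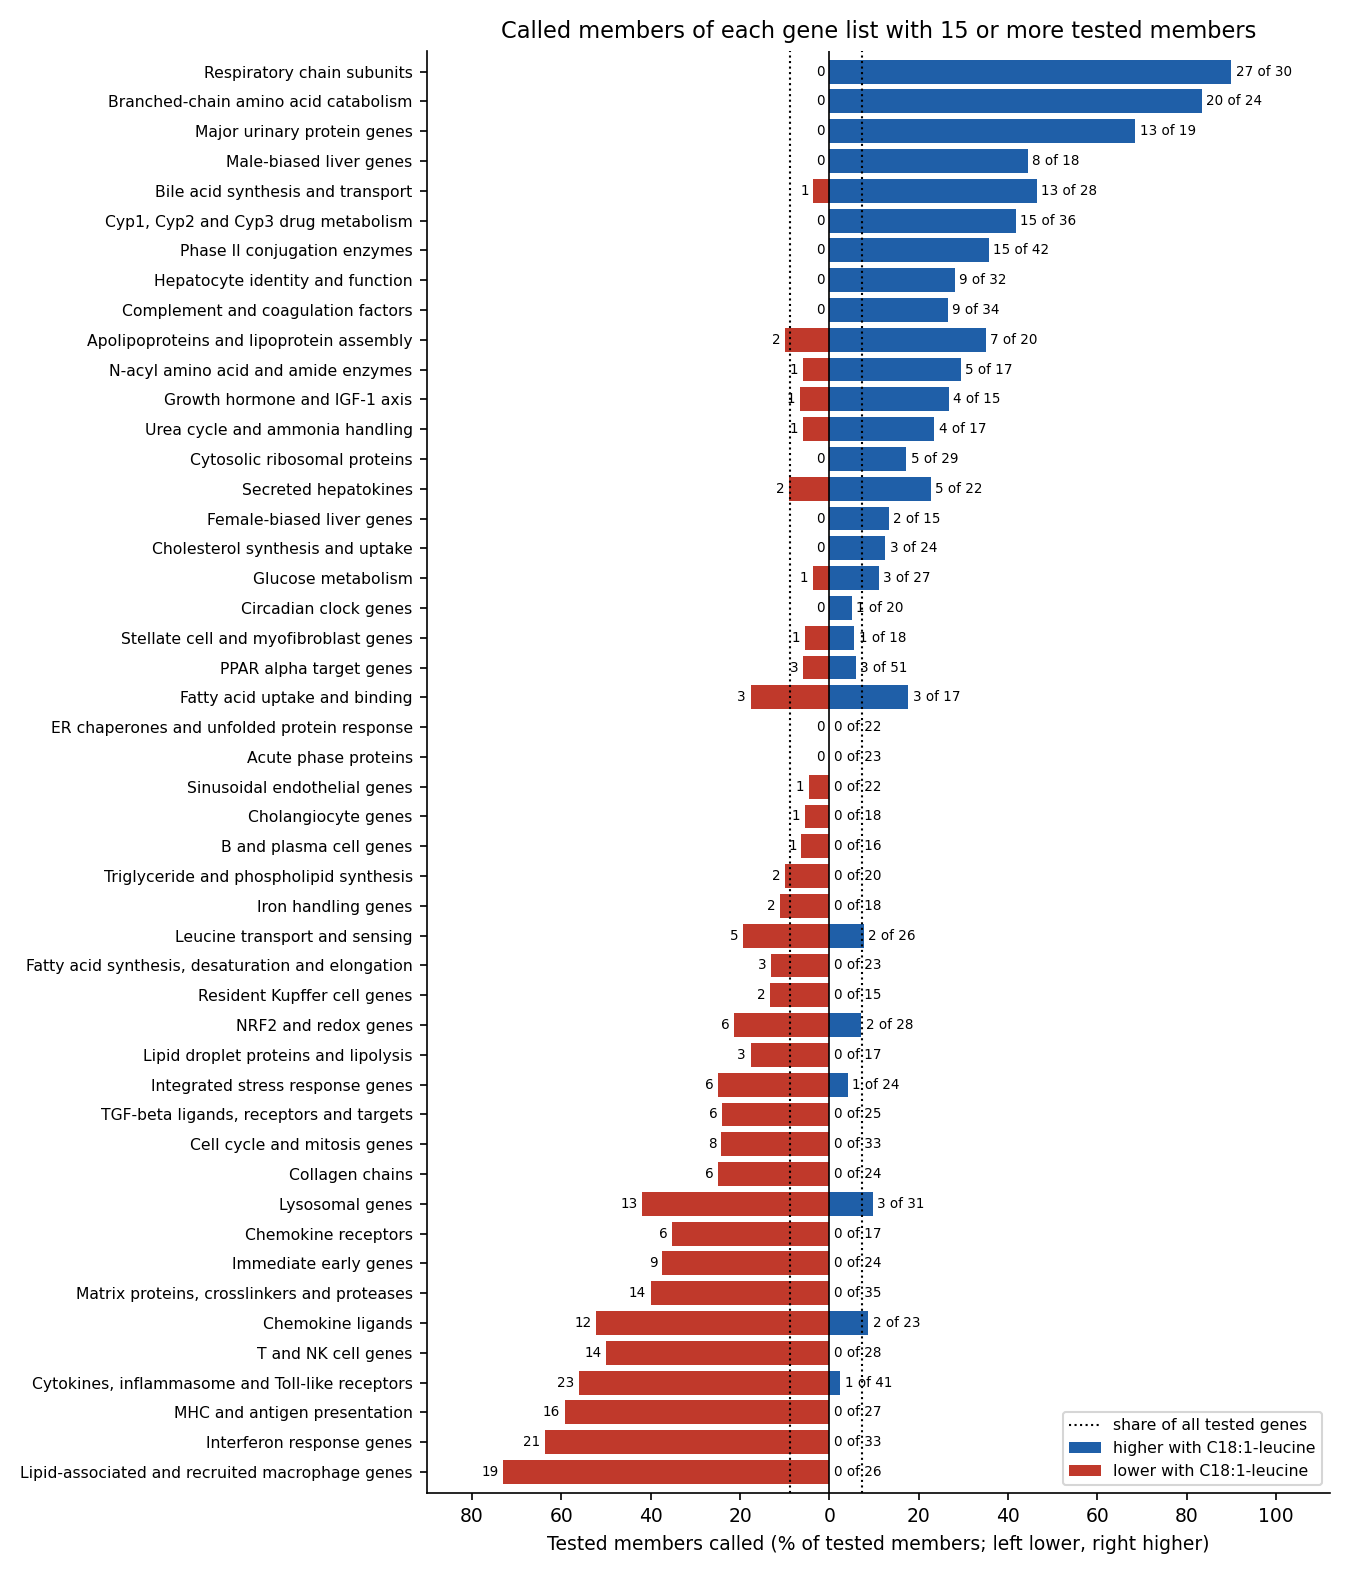
Percent of tested members of each gene list that were lower (left) and higher (right) with C18:1-leucine than with C18:1, for lists with at least 15 tested members. Dotted lines mark the share of all tested genes, 8.89% lower and 7.34% higher. Respiratory chain (90.0% higher) and branched-chain amino acid catabolism (83.3% higher) stand at one end and macrophage genes (73.1% lower) at the other.

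ER chaperone and acute phase genes gave few calls or none, unlike immediate early and red blood cell genes. Of 22 ER chaperone and unfolded protein response genes none passed with edgeR, none had an unadjusted p under 0.05, and neither DESeq2 nor limma voom called any. Of 23 acute phase genes none passed with edgeR, 3 had an unadjusted p under 0.05, DESeq2 called 1 and limma voom 3. Their median was −0.07 and turned on single libraries. It was −0.70 with 1 fall without C18:1-leucine replicate 1, 0.01 without replicate 2 and 0.175 without replicate 4. Without both libraries whose labels disagree it was −0.91, with 1 fall. Immediate early genes gave 9 falls of 24 (37.5%, beside 8.89% of all tested genes), with a median of −0.62. The falls included Ier5 (−1.03 ± 0.16, adjusted p = 0.00329), which kept its call without any library. The count of falls was 4 without C18:1 replicate 1 or 4 and 3 without C18:1-leucine replicate 1. It was 2 without C18:1-leucine replicate 2 and 2 without both libraries whose labels disagree. Red blood cell genes rose in all 8 tested, but the count was 1 or 2 without any of C18:1 replicates 1, 3 and 4 or C18:1-leucine replicates 1 and 2, and 0 without both libraries whose labels disagree. Hbb-bs, a globin chain with near-identical copies, stood at 127, 339.8, 126 and 105 CPM with C18:1 and 573, 586 and 269 CPM with C18:1-leucine (1.45 ± 0.38), and the groups overlapped. Its call ended without any of the same 5 libraries (adjusted p from 0.0574 to 0.0956).

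Pancreatic genes show what 1 library can do. Of the 29 pancreatic genes 5 were tested and 2 passed. Cela2a, a pancreatic elastase, stood at 0.100, 0.170, 0.144 and 0.174 CPM with C18:1 and 0.258, 123 and 0.224 CPM with C18:1-leucine. The change of 8.12 ± 2.46 (adjusted p = 0.0420) came from C18:1-leucine replicate 2, without which the adjusted p was 0.881. The other call was Ctrb1, at 0, 0, 0 and 0.0217 CPM and 0, 129 and 0 CPM, which was not tested without that library. These 2 calls are not carried further.

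**Figure D5:**
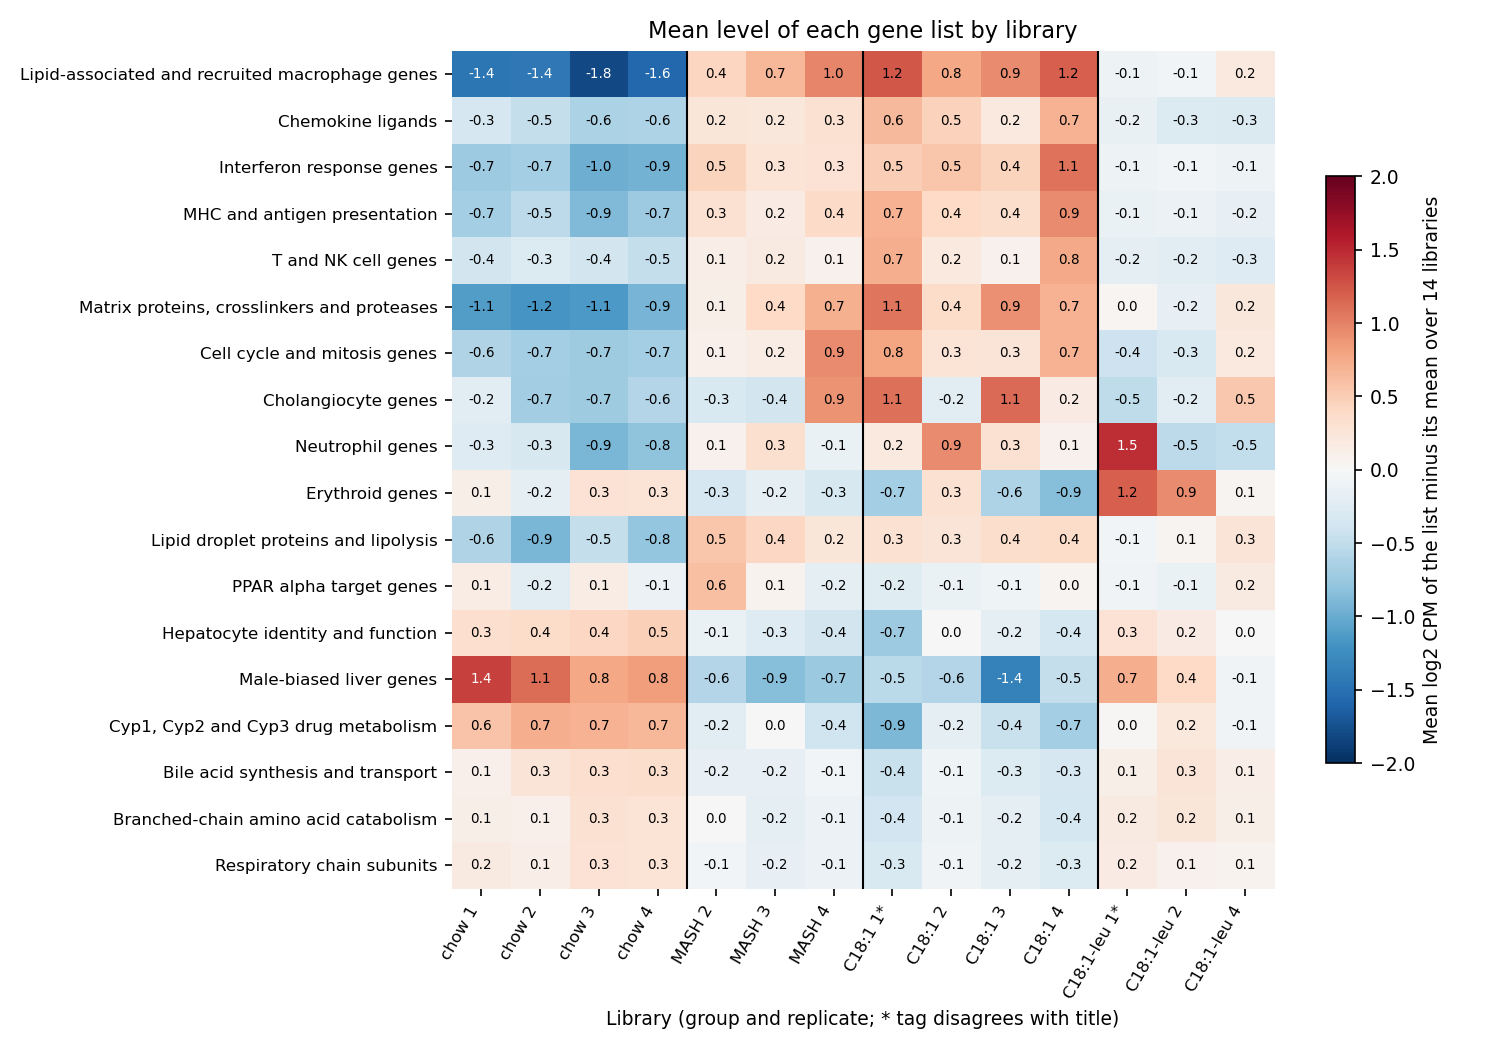
Mean log2 level of 18 gene lists (rows) in each of the 14 libraries (columns), as the difference from the list's mean over all libraries, in log2 units (colour). An asterisk marks the 2 libraries whose tag disagrees with their title. For macrophage genes the 3 C18:1-leucine libraries lie between the chow and the C18:1 libraries, for T and NK cell genes C18:1 replicates 1 and 4 are highest, and for neutrophil genes C18:1-leucine replicate 1 is highest.

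The direction of each gene was set beside the effect of the MASH diet, measured in 7 other libraries, so that the 2 comparisons share none. With MASH, 3200 genes (20.4%) were higher and 2365 (15.1%) lower than on chow. Of the 1151 genes higher with C18:1-leucine than with C18:1, 857 (74.5%, and 36.2% of the 2365) were lower in MASH than on chow and 1 was higher. Of the 1393 lower genes, 1251 (89.8%, and 39.1% of the 3200) were higher in MASH and 1 was lower. Among the 13130 genes that did not pass between the treatments, 14.8% were higher and 11.5% lower in MASH. For 293 of the higher genes (25.5%) and 141 of the lower ones (10.1%) MASH and chow did not differ by the test. The mean level with C18:1-leucine lay beyond the chow mean for 294 of the higher genes (25.5%) and 141 of the lower ones (10.1%).

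Each treatment was also set beside the MASH livers without a named treatment. These comparisons share libraries with each other and with the main one, so their values are only given side by side. C18:1-leucine against MASH called 11 genes (0.0702%; 1 higher, 0.00638%, and 10 lower, 0.0638%, with 2835 at an unadjusted p under 0.05). C18:1 against MASH called none with edgeR (968 at an unadjusted p under 0.05, lowest adjusted p = 0.77). Ccl2 differed from MASH by −1.86 ± 0.26 with C18:1-leucine (adjusted p = 0.0315) and by 0.21 ± 0.22 with C18:1 (95% interval −0.27 to 0.69). The other 9 lower genes included Iqgap1 (−0.86), Lgals3 (−1.31), Mmp12 (−1.94), Mmp13 (−2.61), Cd14 (−1.12) and Galnt6 (−0.95), and Zfp385b was the higher one (0.83). Against MASH, C18:1 gave 0.32 for Iqgap1, 0.29 for Lgals3, −0.00 for Mmp12, 0.10 for Mmp13, 0.33 for Cd14 and −0.17 for Zfp385b. Over the 1393 genes lower with C18:1-leucine than with C18:1, the median was −0.53 for C18:1-leucine against MASH and 0.29 for C18:1 against MASH. Over the 1151 higher genes these medians were 0.27 and −0.13. The MASH mean lay between the 2 treated means for 94.0% of the lower genes and 91.7% of the higher ones. These genes were picked for a difference between those treated means, so a MASH mean in between was likely beforehand. These shares and medians therefore do not show that either treatment moved the genes away from MASH.

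The authors' deposited tables name groups by letters with no key. The table of group D against group C is the one whose log2 fold changes followed those above (Pearson r = 0.956 over the genes of both, a match by values only). Of the 15679 genes in the authors' deposited table, 2613 (16.7%) had an adjusted p under 0.05, with 1166 higher and 1447 lower. Of these, 2442 were also called here, all in the same direction (93.5% of theirs and 96.0% of the 2544). Both start from the same counts. It gives −1.42 for Cd14, −2.05 for Mmp12, −1.73 for Gbp2, −0.84 for Tgfb1, 0.68 for Acadsb, 1.55 for Sult2a8 and 1.95 for Slco1a1, each as a log2 fold change. Of the 117 genes named here that passed, 113 passed in the authors' deposited table. The other 4 were Acod1 (−2.47, adjusted p = 0.0561), Moxd1 (6.08, adjusted p = 0.193), Cela2a and Ctrb1. For S100a8, which did not pass in either, the authors' deposited table gives −0.15, the opposite sign, and for S100a9 it gives −0.34.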

How the data were processed

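Liver RNA of 14 samples was extracted with RNeasy Mini and made into libraries with NEBNext Ultra II RNA, per the labels' protocols, which do not state strandedness. Reads of overlapping genes on opposite strands therefore cannot be told apart; among the genes described, Ccl2, Mmp12, Cxcl10, Gbp2, Ciita, Tap1, H2-DMa, Col4a1, Col4a2, Ucp2, Acot3, Hsd3b5, Acadsb, Igf1, Stat5a, Zfp385b, Apoh, Bmp8b, Elovl1, C8g, Cxcl16, Ccl6, Eci2, Uqcrb, Ndufb5, Il1rap, Tap2, Nfkb2, Itgav, Tnc, Cd22, Lipc, Oas2, Abcc4, Plvap, Galnt6, Pcca, Cela2a, Clip2 and Hhip have such a neighbour. The authors deposited 1 table of estimated counts per gene, some of them not whole, whose making the labels do not describe. The authors also deposited tables of log2 fold changes with p-values for pairs of groups. The submitters' processing notes name HTSeq, DESeq2 1.42.1 and GRCm38 without their roles. Counts were rounded to whole numbers. Symbols came from GENCODE M21 (45143 of 45706 identifiers matched).

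Groups followed the titles. edgeR 4.0.16 (R 4.3.3) with TMM scaling, a filter on low counts (minimum 10, in at least 3 libraries) and the robust quasi-likelihood test was fitted to all 14 libraries, leaving 15674 genes, with Benjamini-Hochberg adjustment over them. CPM are counts per 1000000 of the TMM-scaled library. A fold change is a log2 difference ± its standard error. No gene list was tested as a set.

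The 55 gene lists and the members named were chosen with earlier results of these data known. Genes named are, by rule, the 15 largest rises and 15 largest falls with at least 1 CPM in the higher group and no overlap. The rule adds the 10 smallest p, up to 4 smallest p among called genes of each list, and Ccl2 and Ppara. In a list with no call it adds members with the smallest p. Members of the pancreatic, red blood cell and neutrophil lists where a library stands apart are also named by rule. Others are marked as chosen after their values were seen. Some genes that the rule names are not reported here. Alternatives tried were scaling by relative log expression, dropping the filter, DESeq2 1.42.0, limma 3.58.1 voom with sample weights, the 7 libraries alone, the replicate number as a block, groups from the treatment tags, a minimum 1.5-fold change, and leaving out libraries. The tests were checked on simulated counts.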

Additional observations from a re-analysis of the deposited data

Results flagged for a closer look

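Single C18:1 libraries stood apart from the other 3 of their group in 5 of 132 gene levels and marker sums examined by Dixon's criterion, which chance meets in about 1 of 20 groups. C18:1 replicate 2 had 340 CPM of the globin gene Hbb-bs, against 105 to 127 CPM in the others, and a summed level of the red blood cell genes of 754 CPM, against 265 to 320 CPM. The same library had 128 CPM of Ugt2a3, against 104 to 108 CPM. C18:1 replicate 3 had 4.85 CPM of Acot3, against 1.96 to 2.25 CPM. C18:1 replicate 4 had 0.0217 CPM of Ctrb1, which was at 0 in the other 3. No cause of these values was tested.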

How the results depend on the processing

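Calls numbered 1151 higher and 1393 lower. They numbered 1125 and 1421 with relative log expression scaling, 801 and 1125 without the filter on low counts, 1568 and 1778 with DESeq2, 2051 and 2407 with limma voom, and 594 and 1026 with the 7 libraries alone in the fit. They numbered 0 and 0 with groups from the treatment tags, 115 and 402 without both libraries whose tag disagrees with the title, 165 and 644 without both C18:1 replicates 1 and 3, and 1 and 5 against a minimum change of 1.5-fold. Leaving out each library in turn gave 289 to 1434 higher and 481 to 1609 lower; of the 2544 calls, between 762 (without C18:1-leucine replicate 2) and 2369 (without C18:1 replicate 2) were kept. With the replicate number as a block there were 966 higher and 1340 lower. The labels do not say whether equal replicate numbers share anything. Deviations of same-numbered libraries from their group means correlated at −0.25, 0.20 and −0.12 for replicates 1, 2 and 4. With 3 and 4 libraries in the groups, these values cannot tell whether the numbers pair the samples. S100a8 changed sign with limma voom (−0.84), with the block (−0.048), with the tags (−3.22), without both libraries of disagreeing labels (−2.11) and without C18:1-leucine replicate 1 (−1.98), and S100a9 likewise (−1.07, −0.14, −3.57, −2.50 and −2.32); over all omissions of 1 library they ran from −1.98 to 1.70 and from −2.32 to 1.67. Moxd1 changed sign with the tags (−2.69). The cause of these changes was not tested. With 3 against 4 libraries, small changes in variable genes could not be resolved.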
